A study of Homo sapiens with 5 samples.

Results

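Strong binding of FOXB1, a forkhead transcription factor, was examined in 5 stretches of the genome that hold genes of neural development. The members are all peaks of the 4 deposited peak lists whose centre lay in 1 of these stretches, which were named for LINC00461 with MIR9-2 and MEF2C, for RNF220, for PRDM16, for GLI3 and for FOLR1. There were 23 such peaks among the 7759 peaks of the 4 lists: 11 in wild-type (WT) replicate 1, 12 in WT replicate 2 and 0 in each knockout (KO) list. The stretches were selected on the heights of these same WT peaks, so their height, their number and their absence from the KO lists are given as a description and were not tested.

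The cells were pre-neural crest cells at day 3 of differentiation, grown from the human embryonic stem cell line WA01. Their medium held CHIR 99021 (3 µM), a GSK3 inhibitor that activates Wnt signalling, and at first also the ROCK inhibitor Y-27632 (10 µM), which helps dissociated stem cells survive; the growth conditions were the same for all groups. Chromatin was precipitated with an antibody against FOXB1 in 2 libraries of unedited WT cells and in 2 libraries of the FOXB1 dgRNA-KO line, in which CRISPR/Cas9 had removed the stretch of FOXB1 that codes for its DNA-binding domain. Whether this line is a single clone, and whether the replicates came from separate cultures, is not stated in the sources used. A WT input library made without antibody served for background. The lists hold no expression values, so neither the cell identity nor the loss of FOXB1 could be checked. The WT libraries held 19091152 and 22637495 tags (aligned reads) and the KO libraries 15106068 and 16745101.

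Forkhead factors bind DNA through a winged-helix domain, and several of them act early in development at regulatory elements far from the genes they control. Neural crest cells arise at the border of the neural plate and later form peripheral neurons, glia, pigment cells and parts of the facial skeleton. The genes in the 5 stretches have known roles in this setting. LINC00461 is a long non-coding RNA gene of the developing brain, listed in RefSeq as MIR9-2HG, whose span contains MIR9-2. MIR9-2 encodes miR-9, a microRNA that promotes neuronal differentiation. MEF2C is a MADS-box transcription factor of muscle, heart, neural crest and neurons. RNF220 is a ubiquitin ligase with roles in neural patterning, and PRDM16 is a zinc finger regulator of neural stem cells and brown fat. GLI3 is a transcriptional effector of Hedgehog signalling. FOLR1 is a folate receptor, and folate supply matters for closure of the neural tube.

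The mature products of MIR9-2 are shown because miR-9 is the member with a defined short sequence. They are from RefSeq (GRCh38.p14), written 5′ to 3′, with the seed (bases 2 to 8) in capitals.
hsa-miR-9-5p: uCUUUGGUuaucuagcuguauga
hsa-miR-9-3p: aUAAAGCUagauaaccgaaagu
The same 2 mature sequences are encoded by 3 genes, MIR9-1, MIR9-2 and MIR9-3. Only MIR9-2 belongs to the stretches studied. The peak lists carry positions in hg19, whereas the gene table used for names is of GRCh38.p14, so peaks were not placed in exons, introns or promoters and no distance from a gene was computed. In the gene order of that table, TMEM161B and MEF2C are the protein-coding neighbours of LINC00461, ERI3 and TMEM53 those of RNF220, and ACTRT2 and ARHGEF16 those of PRDM16. INHBA and C7orf25 flank GLI3, and FOLR3 and FOLR2 flank FOLR1. Sites below are called by the name of their stretch, which does not assign them to that gene.

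In the 23 peaks 16 separate sites were seen: 7 found in both WT lists, where the peaks overlapped by at least 1 bp, and 9 found in a single WT list. Of the 11 peaks of WT replicate 1, 7 had a partner in WT replicate 2, against 64.5% of that whole list. Of the 12 peaks of WT replicate 2, 7 had a partner, against 49.2% of its whole list. Each stretch had 1 high site present in both lists, and these 5 sites were the only ones that ranked among the highest peaks of their lists. Their 10 peaks ranked 6 to 172 by height, within the top 5.14% of the list. The other 13 peaks ranked 489 to 3643, and 3 of them were above the median height of their list. The word strong therefore applies to 5 of the 16 sites. Height is the authors' normalized tag count, the tags in the peak window per 10000000 tags of the library.

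The site with the highest mean over the WT libraries lay in the LINC00461, MIR9-2 and MEF2C stretch (chr5:87780000-88220000), at chr5:87960465-87960781 by its WT replicate 1 window. Its height was 30.9 normalized tags in WT replicate 1 (95% Poisson interval 23.5 to 39.9) and 45.1 in WT replicate 2 (36.7 to 54.7), a mean of 38.0 ± 10.0 (SD, n = 2). These intervals, and all others here, cover counting error only. It ranked 19 of 3348 and 6 of 4388 peaks. The input held 2 tags in the WT replicate 1 window and 1 tag in the WT replicate 2 window, and the focus ratios were 0.903 and 0.841. The focus ratio is the caller's measure of how well the tags of the 2 strands flank the peak centre. Both libraries had this site high, and its height was the one that differed most between them among the 7 shared sites.

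A second shared site of this stretch lay 19.2 kb further along, at chr5:87979617-87979933, with heights of 13.6 and 11.5 normalized tags in WT replicates 1 and 2. It ranked 489 and 1144, with 2 input tags in each list. Its focus ratios of 0.935 and 0.966 were the highest of all members in either library. Between these sites, WT replicate 1 alone had a peak at chr5:87969762-87970078, with 13.1 normalized tags, 3 input tags, a focus ratio of 0.774 and rank 600. The 3 peaks of WT replicate 1 were thus 9.30 and 9.86 kb apart. WT replicate 1 alone also had a low peak 113 kb before the highest site, at chr5:87847549-87847865 (8.38 normalized tags, input at its floor of 0.5 tags, focus ratio 0.737, rank 2541). WT replicate 2 alone had one 218 kb after it, at chr5:88178917-88179237 (9.72 normalized tags, input at the floor, focus ratio 0.880, rank 1971).

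In the RNF220 stretch (chr1:44850000-45140000) each WT list held 1 peak, at the same site. It lay at chr1:45008912-45009228 and reached 33.0 normalized tags in WT replicate 1 (25.4 to 42.2) and 38.0 in WT replicate 2 (30.4 to 46.9), a mean of 35.5 ± 3.54 (SD, n = 2). Its rank was 12 in each list. The input was at its floor, and the focus ratios were 0.753 and 0.871. The values of the RNF220 site (33.0 and 38.0) lay inside the range of the highest chromosome 5 site (30.9 to 45.1), with the RNF220 site higher in WT replicate 1 and lower in WT replicate 2, so the order of these sites was not resolved.

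The PRDM16 stretch (chr1:2960000-3380000) had the most peaks, 4 in WT replicate 1 and 6 in WT replicate 2, but 1 high site. That site, at chr1:3030681-3030997, had 21.5 normalized tags in WT replicate 1 (15.4 to 29.1) and 30.5 in WT replicate 2 (23.7 to 38.6), a mean of 26.0 ± 6.36 (SD, n = 2). It ranked 61 and 25, with input at the floor and focus ratios of 0.722 and 0.770. A low shared site lay 163 kb after it, at chr1:3194130-3194446, with 8.38 and 9.72 normalized tags. The low site had 1 input tag and focus ratios of 0.765 and 0.840, and ranked 2541 and 1971. No PRDM16 peak other than the high site exceeded 9.72 normalized tags in either list.

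The remaining PRDM16 peaks were each in a single list. WT replicate 2 alone had peaks at chr1:3128281-3128601 (9.28 normalized tags, 2 input tags, focus ratio 0.793, rank 2225) and at chr1:3326523-3326843 (7.95 normalized tags, 1 input tag, focus ratio 0.696, rank 3216). The other 4 formed pairs that came close without overlapping. WT replicate 1 had a peak at chr1:2968257-2968573 (8.38 normalized tags, 1 input tag, focus ratio 0.615, rank 2541), and WT replicate 2 had one 683 bp away at chr1:2967572-2967892 (7.51 normalized tags, input at the floor, focus ratio 0.619, rank 3643). Likewise, WT replicate 1 had a peak at chr1:3093262-3093578 (7.86 normalized tags, input at the floor, focus ratio 0.600, rank 2964), and WT replicate 2 had one 725 bp away at chr1:3092535-3092855 (8.83 normalized tags, 2 input tags, focus ratio 0.630, rank 2537). These 4 peaks had the 4 lowest focus ratios of all members. In the whole lists, 66 of the 1190 WT replicate 1 peaks without an overlapping partner (5.55%) had a WT replicate 2 peak centred within 1 kb.

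The GLI3 stretch (chr7:41980000-42300000) held 1 site, at chr7:42105653-42105969. Its heights of 16.8 normalized tags in WT replicate 1 (11.5 to 23.7) and 17.2 in WT replicate 2 (12.3 to 23.6) were the closest of any shared member, a mean of 17.0 ± 0.283 (SD, n = 2). It ranked 172 and 153, with input at the floor and focus ratios of 0.762 and 0.860. The FOLR1 stretch (chr11:71880000-71930000) likewise held 1 site, at chr11:71912600-71912916. Its height was 18.3 normalized tags in WT replicate 1 (12.8 to 25.5) and 20.3 in WT replicate 2 (14.9 to 27.1), a mean of 19.3 ± 1.41 (SD, n = 2). It ranked 107 and 84, with input at the floor and focus ratios of 0.818 and 0.815. In each library the GLI3 and FOLR1 sites were lower than the other 3 high sites, and their counting intervals overlapped each other. In WT replicate 1 both also overlapped those of the high PRDM16 site (15.4 to 29.1) and the highest chromosome 5 site (23.5 to 39.9). The FOLR1 interval there also reached that of the RNF220 site (25.4 to 42.2). In WT replicate 2 the FOLR1 interval overlapped that of the high PRDM16 site (23.7 to 38.6), and the GLI3 interval did not.

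**Figure D1:**
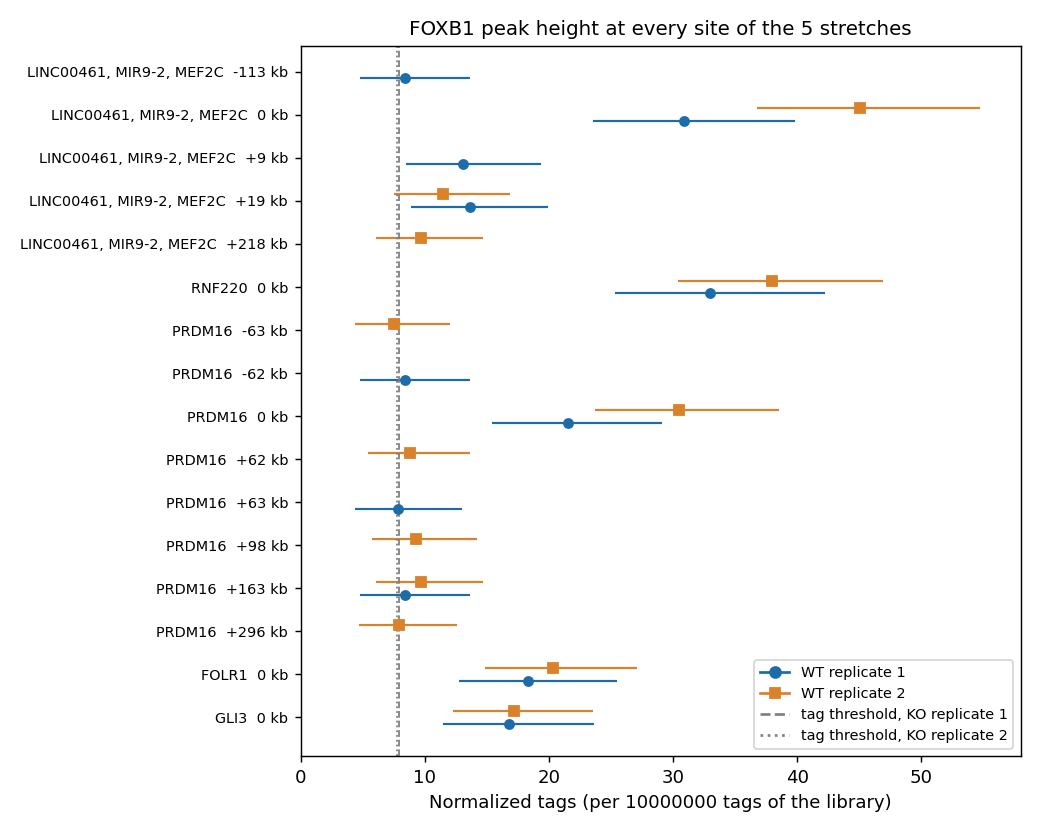
Height of each of the 16 sites, in normalized tags per 10000000 tags of the library, with 95% Poisson intervals; sites are listed by stretch and by distance in kb from the highest site of the stretch, circles are WT replicate 1 and squares WT replicate 2. Dashed and dotted lines are the tag thresholds of the KO lists, 7.94 and 7.76 on this scale, which apply to narrower windows; the 10 peaks at 0 kb lie between 16.8 and 45.1, and the other 13 between 7.51 and 13.6.

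The rule for membership is a position. Of the nearest peaks outside each stretch, those within 73.4 kb stood at 10.6 normalized tags or below. In WT replicate 2, a peak of 7.51 normalized tags lay 7.09 kb past the end of the PRDM16 stretch, at chr1:3386934-3387254. The peak of the same height at chr1:2967572-2967892 lay 7.73 kb inside the start of that stretch. WT replicate 2 also had a peak of 10.6 normalized tags with 3 input tags 26.0 kb past the FOLR1 stretch, at chr11:71955866-71956186. The nearest shared site outside lay 73.4 kb before the RNF220 stretch, at chr1:44776462-44776778, with 9.43 and 7.95 normalized tags. All other nearest peaks were 98.8 kb or more away, and not all were low. The highest was a shared site 680 kb before the PRDM16 stretch, with 16.8 normalized tags and rank 172 in WT replicate 1. Taken over all 5 stretches, which span 1.52 Mb, there were 7.24 and 7.89 peaks per Mb in WT replicates 1 and 2. The whole lists had 1.67 and 2.19 per Mb of the 2000 Mb that the caller took as genome size. The stretches were selected on peaks of these lists, so a higher density in them follows from that selection and was not tested.

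**Figure D2:**
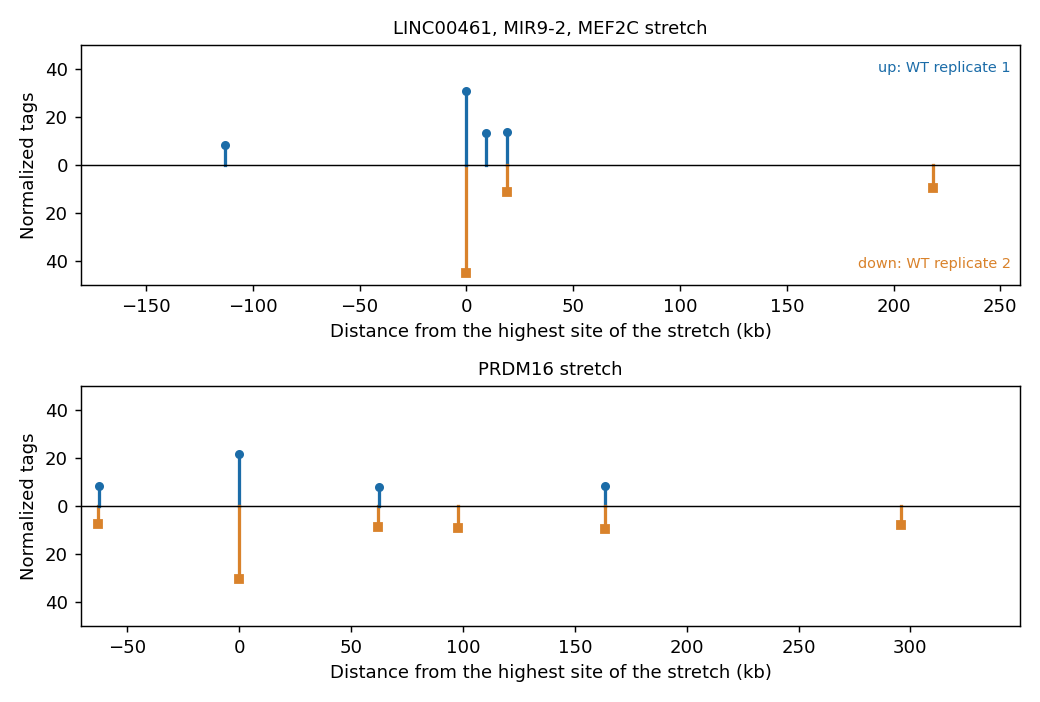
Position of every WT peak in the chromosome 5 stretch (top) and the PRDM16 stretch (bottom), as distance in kb from the highest site; bars point up for WT replicate 1 and down for WT replicate 2 and give height in normalized tags. The highest site and the site 19.2 kb after it are present in both lists on chromosome 5, while the PRDM16 peaks outside the highest site all stand at 9.72 or below.

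The WT replicates were then compared at the 7 shared sites. Tags in each peak were recovered from the height and the depth of the library. At the highest chromosome 5 site they were 59 in WT replicate 1 and 102 in WT replicate 2, a depth-corrected ratio of 1.46 (exact 95% interval 1.05 to 2.04). The ratio was 1.42 (0.951 to 2.14) at the high PRDM16 site, with 41 and 69 tags. It was 1.15 (0.822 to 1.62) at the RNF220 site, 1.11 (0.699 to 1.77) at the FOLR1 site and 1.02 (0.627 to 1.69) at the GLI3 site. WT replicate 2 was higher at 6 of the 7 sites, against 47.2% of all 2158 shared sites. The second chromosome 5 site was the exception, with a ratio of 0.846 (0.471 to 1.51).

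None of these differences passed a two-sided exact binomial test of the tags with Benjamini-Hochberg adjustment over all 2158 shared sites. The adjusted p was 1 at each of the 7 sites, and 0 of all shared sites (0.00%) were called. Without adjustment, 1 of the 7 sites, the highest chromosome 5 site, was below 0.05, against 3.10% of all shared sites. The test compares the split of tags between these 2 libraries, not the height that selected the sites, and the sites had to pass the caller in each, so nothing is read from that single site. Centres of the shared sites were 12 to 79 bp apart between the replicates, with a median of 34 bp, against a median of 33 bp for all shared sites. The focus ratio was higher in WT replicate 2 at 5 of the 7 sites and lower at 2, and it was higher at 51.4% of all shared sites.

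**Figure D3:**
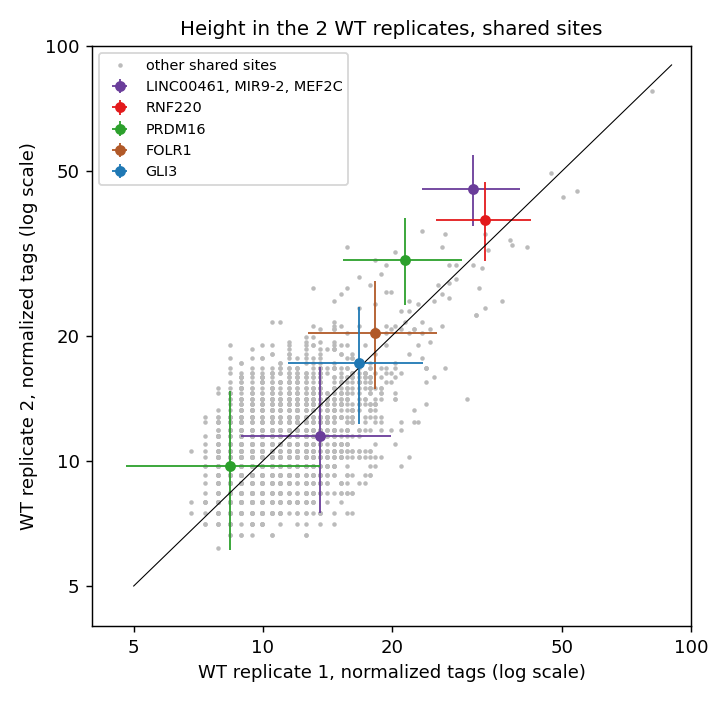
Height in WT replicate 1 (x axis) against WT replicate 2 (y axis) at all 2158 shared sites, in normalized tags on log scales; coloured points are the 7 shared members with 95% Poisson intervals, grey points the other sites, and the line marks equal height. The highest chromosome 5 site lies farthest above the line among the members, at 30.9 and 45.1, and the GLI3 site lies on it, at 16.8 and 17.2.

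How prominent a site was depended on the measure. By the authors' fold over input, the RNF220 site ranked 1 in each WT list, at 91.0 and 104.76 times the input. The high PRDM16 site ranked 4 and 3 (59.2 and 84.0 times), the FOLR1 site 13 and 10 (50.6 and 57.2 times) and the GLI3 site 26 and 20 (46.2 and 47.5 times). These 4 sites all had the floor value of 0.5 input tags, so their folds are not exact and restate height. The highest chromosome 5 site fell from rank 6 in WT replicate 2 (62.1 times, 1 input tag) to rank 688 in WT replicate 1 (21.3 times, 2 input tags), a change that rests on 1 input tag and on a lower WT tag count.

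Against the surrounding 10 kb the order was different. The highest chromosome 5 site led the members, at 30.0 and 30.4 times the local tags and ranks 13 and 15. The RNF220 site stood at 15.9 and 22.0 times (ranks 145 and 31), the high PRDM16 site at 16.1 and 20.9 times (ranks 141 and 37) and the GLI3 site at 12.1 and 16.8 times (ranks 474 and 81). The FOLR1 site was lowest of the 5, at 9.30 and 10.7 times and ranks 1112 and 672. By focus ratio the same sites ranked 627 to 2717, well below their ranks by height. In WT replicate 1, 9 of the 11 member peaks had a focus ratio below the list median of 0.824. In WT replicate 2, 5 of 12 were below its list median of 0.815.

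Input background was at its floor more often at the high sites than at the other members. The input was at its floor for 12 of the 23 peaks: 8 of the 10 peaks of the high sites and 4 (30.8%) of the other 13. The highest chromosome 5 site was the only high site above the floor, with 2 and 1 input tags in WT replicates 1 and 2. The floor was reached by 19.2% and 21.5% of the whole WT lists. No member had more than 3 input tags, against 4.21% and 3.78% of the whole lists. With 23 members and shares this small, nothing is read from that absence.

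**Figure D4:**
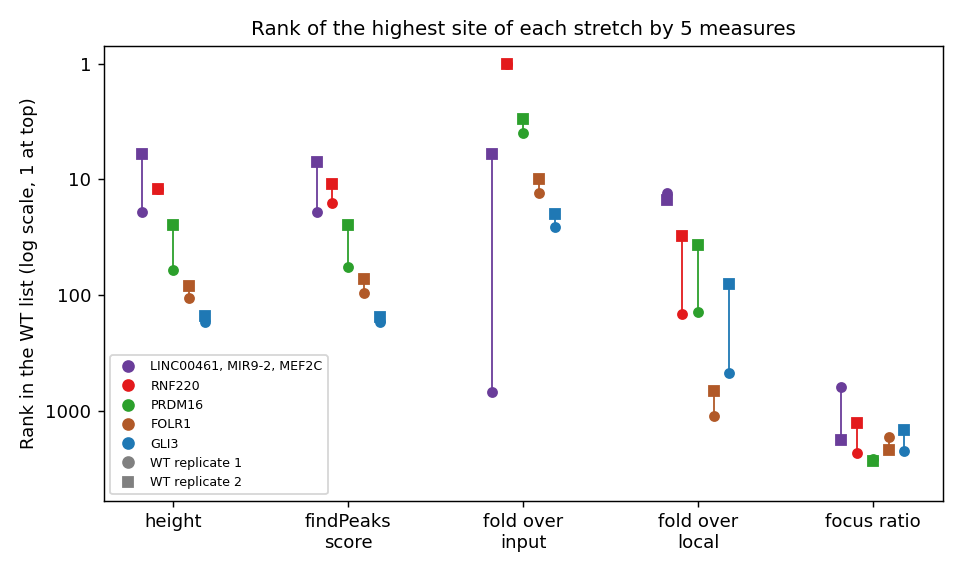
Rank in its WT list (y axis, log scale, 1 at the top) of the highest site of each stretch, by height, findPeaks score, fold over input, fold over the local 10 kb and focus ratio; circles are WT replicate 1 and squares WT replicate 2, and lines join the replicates of a site. The RNF220 site ranks 1 by fold over input in each list, the chromosome 5 site spans ranks 6 to 688 by that measure, and by focus ratio all 5 rank between 627 and 2717.

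In the KO lists no peak was called in any of the 5 stretches. Thus 0 of the 23 member peaks overlapped a KO peak, while 4 of all 7736 WT peaks (0.0517%) did, so the absence is shared with nearly the whole WT lists. The KO lists held 11 and 12 peaks in all. None was on chromosome 5 or 7, and KO replicate 1 had none on chromosome 11. On chromosome 1 the nearest KO peak was 98.5 Mb from the RNF220 site and 141 Mb from the high PRDM16 site, and on chromosome 11 it was 42.5 Mb from the FOLR1 site.

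A site missing from a KO list need not be at 0 tags. The headers of the KO lists give tag thresholds of 12 and 13, or 7.94 and 7.76 normalized tags. Their windows were 179 and 186 bp, where the WT lists used 317 and 321 bp. These thresholds were not strict floors on height, since the smallest height called was 7.28 in KO replicate 1 and 7.76 in KO replicate 2. A site could also be removed by the filters on input and local tags, and the files do not record which step removed it. The heights of the 5 high sites were 2.11 to 5.81 times the KO thresholds, without regard to window width. At the depth and window width of KO replicate 1, the 10 peaks of the high sites came to 14.3 to 38.0 scaled tags, all above its threshold of 12. Scaled to KO replicate 2 they came to 16.5 to 43.7 tags, above its threshold of 13. No counting interval was carried into the scaled tags. A site at 14.3 scaled tags could thus still fall below 12 through counting error.

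The low members came out lower in this scaling, and the result for them turned on the window width. Their 13 peaks came to 6.33 to 11.6 tags at the depth and window of KO replicate 1, all below its header threshold, which was not a strict floor. In total 5 of 11 member peaks of WT replicate 1 and 5 of 12 of WT replicate 2 reached the threshold, against 14.6% and 10.6% of the whole lists. For KO replicate 2 these numbers were 6 of 11 and 5 of 12, against 17.9% and 14.5%. The added peak was that of the second chromosome 5 site in WT replicate 1, at 13.4 tags. Scaled tags follow WT height, on which the stretches were selected. Shares above those of the whole lists were therefore fixed in advance, and nothing about the KO cells is read from them. Scaled for depth alone, 10 of 11 and 11 of 12 member peaks reached the threshold of KO replicate 1, against 88.5% and 83.0% of the whole lists, and 11 of 11 and 11 of 12 that of KO replicate 2, against 97.8% and 83.0%. At the highest chromosome 5 site the scaled tags were 26.4 and 38.0 from WT replicates 1 and 2 for KO replicate 1, and at the GLI3 site 14.3 and 14.5. Scaling for width assumes an even spread of tags across a WT window, and this was not tested.

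**Figure D5:**
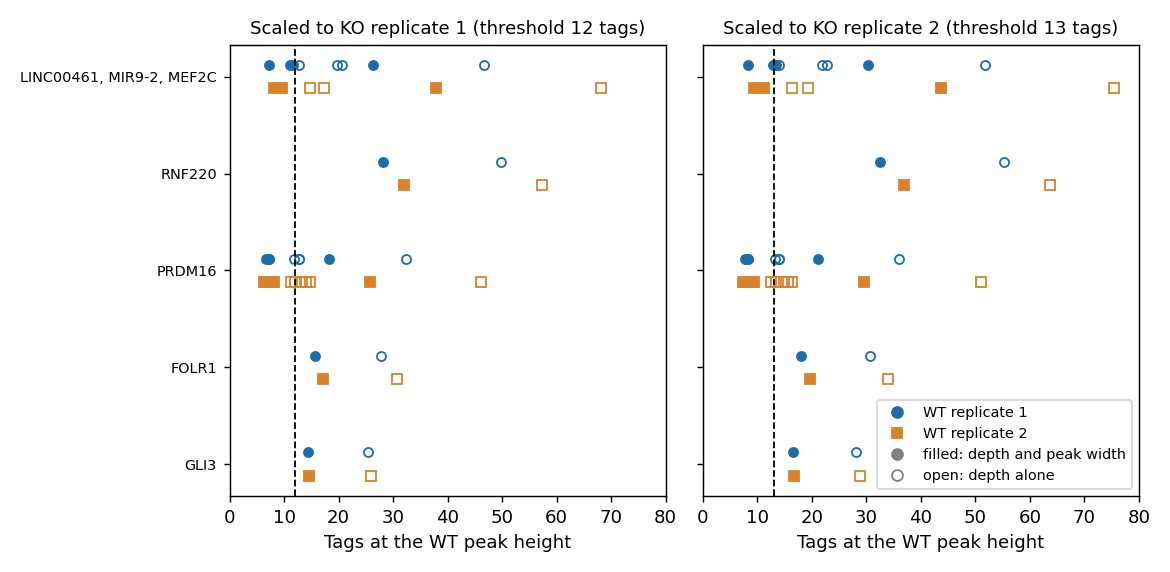
Tags that each member peak would have at its WT height in KO replicate 1 (left) and KO replicate 2 (right), by stretch; open symbols are scaled for depth alone and filled symbols for depth and window width, circles come from WT replicate 1 and squares from WT replicate 2, and the dashed line is the tag threshold of the KO list. Filled symbols of the highest site of each stretch lie at 14.3 tags or more, to the right of both thresholds, and those of the other sites at 13.4 or less. Counting intervals are not shown.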

How the data were processed

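The submitters' processing notes name the build hg19 and the tools HOMER 4.10, BWA 0.7.17 and Picard, without saying what each did. Peaks were called per library with findPeaks in factor mode against 1 input tag directory, per the file headers, at a false discovery rate of 0.001, at least 4 times the input and 4 times the surrounding 10000 bp. The name of that directory carries more than 1 day label, so its input tags cannot be tied to day 3 alone. Per the file headers, the normalized tag count and the input tags are signal values, the focus ratio is a fraction, and the findPeaks score is not scaled to depth. The deposited folds over input and local tags are linear ratios, and the deposited p-values are unadjusted and were not used. All of these are the authors' values.

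Height times library depth came within 0.108 of a whole tag for every peak and was rounded to tags, on which Poisson intervals and the exact binomial test rest. The overlap search was checked against an exhaustive search on a sample of real peaks, and the binomial test on simulated tags. Ranks count from the highest value, with ties at the lowest rank. Every member was reported, the shared sites and the highest peak of each stretch in full. Members and tests were chosen with earlier results of these data known. RefSeq names matched all 7 genes. A planned forkhead motif count was not run, since no hg19 sequence was used here. Software was scipy 1.17.1, pandas 2.3.3, numpy 2.4.6 and matplotlib 3.10.9 under Python 3.11.15.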

Additional observations from a re-analysis of the deposited data

How the results depend on the processing

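The mean number of member peaks per WT list was 11.5. It ranged from 8 to 12.5 under 4 other filters and edges and from 11 to 12 when each WT library was left out. Leaving out a KO library cannot change this mean. The KO lists had 0 peaks in the stretches under each of the 4, and only the wider edges could have added any. The 7 shared sites remained 7 with a 50% overlap, with centres within 100 bp and with edges widened by 50 kb, and 6 with at least 8 times the input. No member passed the test between replicates under either other setting. The number of member peaks reaching a KO threshold, a scaling chosen in all its settings after seeing the data, was 10 at the depth and window of KO replicate 1, 11 for KO replicate 2, and 21 and 22 for depth alone, so the window width sets most of it. No paired analysis was possible because the stretches were chosen on these lists, so the comparison of WT with KO in them comes from no test. Folds over input rest on at most 3 input tags. The WT header thresholds were 16 and 17 tags, or 8.38 and 7.51 normalized tags, and sites near them stand close to the limit of detection. These were not strict floors either, since the smallest heights called were 6.81 and 6.18 normalized tags in WT replicates 1 and 2.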
